A study of Drosophila melanogaster with 23 samples.

Results

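Embryos that received histone H3.3 with lysine 9 replaced by methionine (H3K9M) from their mothers were compared with control embryos by Hi-C, a method in which neighbouring stretches of chromatin are crosslinked, cut, ligated and counted as contacts. The comparison used 9 of the 23 libraries of the series, 2 from H3K9M embryos and 7 from control embryos, and members were taken from the genotype each library was labelled with. All 9 libraries came from *Drosophila melanogaster* embryos at stage 5, when the zygotic genome is activated. Eggs were laid for 1 h and aged for 2 h at 25 °C, and embryos were fixed, sorted by hand and stored in batches of 50 to 100. The control was labelled as stock 36303, and the labels do not say whether its embryos carried a driver. In the H3K9M group a pUASP::H3.3K9M transgene was expressed with a Gal4 driver active in the female germ line (stock 7063), so the mutant histone was a maternal product. The wild-type H3 and H3.3 genes were left in place, and the comparison held no group with a wild-type H3.3 transgene. Of each group 1 pooled contact map was deposited. There was therefore no spread between libraries to set a difference against, and no test was made. Each map also averages the nuclei of many embryos, so a contact lost from some nuclei and a contact weakened in all of them cannot be told apart.

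Methylation of lysine 9 of histone H3 marks the repeat-rich chromatin around the centromeres. Heterochromatin protein 1 (HP1) binds the di- and trimethylated lysine through its chromodomain, and the pericentromeric regions of all chromosomes gather in a common domain of the nucleus. A methionine at this position cannot be methylated and inhibits the methyltransferases that act on other copies of H3, so a minor pool of the mutant histone lowers the mark across the genome. Early fly nuclei also hold their chromosomes in the Rabl configuration, with centromeres at one pole, telomeres at the other and the arms running side by side between them. In a contact map, this order appears as contact between pericentromeric regions of different arms, and as contact between loci of different arms that lie equally far from the centromere.

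The changed residue is shown first, since the comparison turns on it. Fly H3.3 is encoded by His3.3A and His3.3B, which specify the same protein, and the first 60 coding bases of each gene on the dm6 genome of RefSeq are given with the codon of lysine 9 in capitals. This codon is the 10th when the initiator methionine is counted. The His3.3A bases lie in the coding exon at chr2L:5055259-5055318 on the plus strand, and the His3.3B bases at chrX:9154602-9154661 on the minus strand.
His3.3A: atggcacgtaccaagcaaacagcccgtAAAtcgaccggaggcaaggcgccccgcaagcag
His3.3B: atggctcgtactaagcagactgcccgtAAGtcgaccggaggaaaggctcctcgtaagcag
The stretches were identical at 51 of 60 bases. The genes thus differ in sequence although not in product.

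Contacts of the 10-kb bins of marker genes were then read as a check of the labels. A transgene carries copies of marker and vector sequences, and reads from such a copy are placed at the marker's own position, where they appear as contacts with a distant bin. The pUASP vector holds the end of fs(1)K10 and a white (w) marker. The bin of His3.3A had 19 contacts with the bin of fs(1)K10 in the H3K9M map and 0 in the control map, although the control map was the deeper of the pair. With the bin of w it had 23 contacts in H3K9M and 1 in control. The bin of His3.3B had at most 3 contacts with any of the 8 partner bins listed for it in H3K9M. Partners were listed on other arms only. His3.3B lies on X, as do fs(1)K10 and w, so its contacts with these vector bins were not read. Thus contacts that joined bins of vector sequences to the bin of His3.3A stood in the map labelled H3K9M. Whether His3.3B had such contacts was not tested.

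Other marker contacts differed between the groups as well. The bin of fs(1)K10 had 49 contacts with the bin at 2L 1580001 in H3K9M and 0 in control, and yellow (y) had 391 contacts with the same bin in H3K9M and 3 in control. In the control map, y instead had 3136 contacts with the bin at 3L 11060001, against 11 in H3K9M. The bin of w was joined to that of alphaTub67C, a tubulin gene of the female germ line, by 3186 contacts in control and 617 in H3K9M, and to the bin at 3R 18910001 by 2997 and 581. The last pair of contacts was shared by both maps, whereas those at 2L 1580001 and 3L 11060001 each stood in 1 of them. The groups thus differed in these sites. That at 2L 1580001 was joined to a vector bin in H3K9M, so it cannot be set apart from the transgene. In the HP1-rescue map used further below, whose embryos also carried a pUASP transgene, it had 23 contacts with fs(1)K10 and 288 with y. In the HP1-KD map it had 0 with each. Which insertion the site marks, and the part of these differences in the results below, was not tested.

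The genome was divided into 10-kb bins, and the deposited maps hold a corrected contact value for pairs of bins. Iterative correction multiplies each contact by 1 balancing factor per bin so that all bins reach the same total. Whole contacts were recovered from these values. The control map held 296261868 contacts among the bins used and the H3K9M map 62792707, with a median of 41978 and 8978 contact ends per bin. A contact was seen for 28.8% of all bin pairs in control and for 11.0% in H3K9M. Levels are given as mean scaled contact per bin pair, with each map scaled to a total of 50000000, and differences as the log2 ratio of H3K9M over control. The range in parentheses after a ratio is its 95% counting interval, which covers counting error only. Among the 13159 bins used on the long arms of chromosomes 2 and 3 and on X, 1544 were pericentromeric, a border set where the share of repeats in the reference fell below 30%. On 2L, 3L and X the region covered the end of the assembled arm, from positions 22200001, 23000001 and 23000001, with 123, 482 and 54 bins. On 2R and 3R, which are numbered from the centromere, it covered the first 4800000 and 4200000 bases, with 467 and 418 bins. The rest of each arm is called its interior.

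How far the pericentromeric regions gather was examined first, through their contact across arms. This contact was lower in H3K9M. The mean scaled contact was 0.577 in control and 0.472 in H3K9M, a log2 ratio of -0.29 (-0.32 to -0.26) or a difference of -18.3%, from 1363212 and 229278 whole contacts. All 6 pairs among 2L, 2R, 3L and 3R were lower, each with an interval below 0. The pair of 2L and 2R had the highest level of the 10, 1.40 in control, and the largest difference, with 1.02 in H3K9M and a ratio of -0.46 (-0.57 to -0.34). For 3L and 3R, the other pair that shares a centromere, the level was 0.798 in control and 0.680 in H3K9M, a ratio of -0.23 (-0.28 to -0.18). The difference at the chromosome 2 centromere was thus outside the counting interval of that at the chromosome 3 centromere.

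The 4 pairs of different chromosomes without X lay between these. The contact of 2R with 3L was 0.427 in control and 0.354 in H3K9M, a ratio of -0.27 (-0.33 to -0.21). Between 2R and 3R it was 0.463 and 0.369, with a ratio of -0.33 (-0.41 to -0.24). The pairs of 2L with 3L and of 2L with 3R were at -0.26 and -0.32. Loss of contact was therefore seen within and between chromosomes 2 and 3 alike.

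The pericentromeric part of X was measured with fewer contacts. Only 54 of its bins were used, and its 4 pairs rested on 705 to 2203 contacts each in H3K9M. Against the other arms its level was 0.160 in control and 0.158 in H3K9M, a ratio of -0.02 (-0.18 to 0.14). Its single pairs ran from -0.34 (-0.74 to 0.06) with 2L to 0.25 (-0.01 to 0.50) with 2R, and all 4 intervals included 0. At this depth a difference was not detectable for any of its pairs. The value for X also moved with the processing. With the control map thinned to the depth of the H3K9M map, all 5 arms lay between -0.33 and -0.20, whereas without iterative correction the highest of them was at 0.25.

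**Figure D1:**
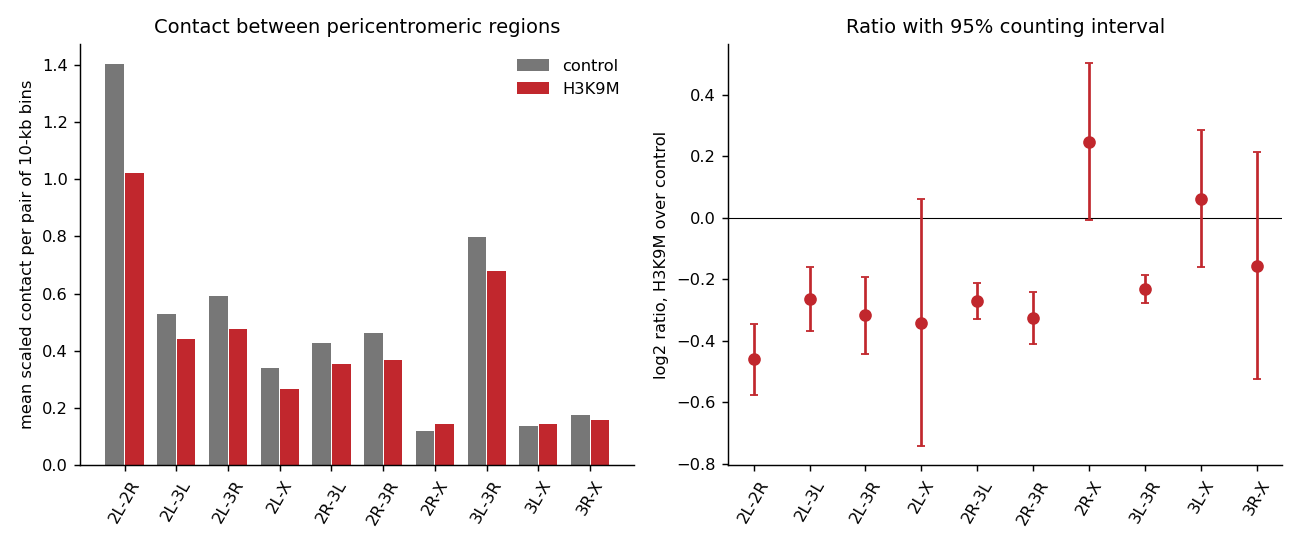
Contact between pericentromeric regions for the 10 pairs of arms. The left panel gives the mean scaled contact per pair of 10-kb bins in the pooled control and H3K9M maps as bars from 0, and the right panel the log2 ratio of H3K9M over control with its 95% counting interval. All 6 pairs without X lie below 0, from -0.46 to -0.23, and the 4 pairs with X have intervals that include 0.

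Contact among pericentromeric bins of the same arm, averaged over all distances, was not lower on the autosomes. Its level was 29.4 in control and 30.8 in H3K9M on 2L, a ratio of 0.06 (0.01 to 0.12). The ratios on 2R, 3L and 3R were 0.06, 0.03 and 0.05, each with an interval above 0, and X was at -0.02 (-0.10 to 0.06). A split of these means by distance was not made.

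Contact between pericentromeric regions and arm interiors was higher. With interiors of other arms the level was 0.0297 in control and 0.0380 in H3K9M, a log2 ratio of 0.36 (0.33 to 0.38) or 28.1% more. With the interior of the own arm it was 0.0962 and 0.126, a ratio of 0.39 (0.37 to 0.42). These levels are far below those between pericentromeric regions, so the contrast between both kinds of contact was smaller in H3K9M but still present. Where the border was set at a repeat share of 50%, which leaves only small stretches next to the centromere, the ratio with other arms was 0.0198. On 2L that border kept 13712 bases, and most bins called pericentromeric above then counted as interior.

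The gain was not the same for all arms. The interior of 2L had a level of 0.0328 with the pericentromeric regions of other arms in control and 0.0486 in H3K9M, a ratio of 0.57 (0.52 to 0.61). The interiors of 3L and 3R were at 0.49 and 0.52, and that of X at 0.22 (0.13 to 0.30). The interior of 2R stood apart with 0.0454 and 0.0447, a ratio of -0.02 (-0.07 to 0.02). It was near 0 with each pericentromeric region in turn, from -0.11 (-0.26 to 0.04) with 2L to 0.01 (-0.05 to 0.07) with 3L. Seen from the other side, it was the pericentromeric region of 2R that had the highest gain with interiors of other arms, 0.55 (0.50 to 0.60). Those of 2L, 3L, 3R and X were at 0.24, 0.28, 0.28 and 0.20. These means include the 2R interior, which was near 0, whereas that of the 2R region does not. Interior by interior, the 2R region was the highest with 2L only. With the 3L interior it was at 0.51, as was the 3R region. With the 3R interior it was at 0.53 and the 3L region at 0.54. With the X interior it was at 0.31 and the 2L region at 0.58. The largest single ratio was that of the pericentromeric region of 2R with the interior of 2L, where the level was 0.0433 in control and 0.0706 in H3K9M and the ratio 0.71 (0.66 to 0.76).

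With the interior of the own arm, the means over all bins of 2L, 3L and 3R were above those of 2R and X. The ratio of 2L was 0.73 (0.66 to 0.80). Those of 3L and 3R were 0.70 (0.66 to 0.74) and 0.62 (0.59 to 0.65), whereas 2R had 0.12 (0.09 to 0.16) and X -0.10 (-0.21 to 0.01). On 2L the level changed from 0.129 to 0.214. In the windows of 1 Mb used below, the median ratio for this contact was 0.74 on 2R and 0.55 on X. It was 1.04 on 2L, 0.81 on 3L and 0.71 on 3R. The low means of 2R and X thus did not hold for their median window.

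The interiors were then divided by distance from the pericentromeric border, to see which part of an arm the gain came from. In the first 1 Mb the level with pericentromeric bins of other arms was 0.196 in control and 0.182 in H3K9M, a log2 ratio of -0.10 (-0.14 to -0.06). From 1 to 2 Mb the ratio was 0.20 and from 2 to 4 Mb 0.45. From 4 to 8 Mb it was highest, at 0.64 (0.58 to 0.70), with levels of 0.0230 and 0.0358. It then stayed high along the arm, at 0.60, 0.59 and 0.56 over the next classes and at 0.52 (0.40 to 0.64) from 20 to 28 Mb. Pericentromeric regions thus had more contact with all distance classes of other arms but the first.

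In that first class the arms went different ways. Contact with pericentromeric bins of other arms was higher there on 2L, 3L and 3R, at 0.13 (0.07 to 0.19), 0.30 (0.23 to 0.38) and 0.10 (0.03 to 0.18). On X it was at -0.09 (-0.30 to 0.12). On 2R the level was 0.436 in control, close to that between pericentromeric regions, and 0.310 in H3K9M, a ratio of -0.49 (-0.55 to -0.44). With the interiors of other arms the same bins had 0.0393 in control and 0.0500 in H3K9M, a ratio of 0.35 (0.30 to 0.39). The next 1 Mb of 2R was at -0.20 (-0.33 to -0.07), and from 2 Mb on 2R had ratios from 0.25 to 0.58 like the other arms. In levels and in ratios these bins lay nearer to the pericentromeric regions than to the interiors. They lie within the wider pericentromeric regions used as an alternative border, and with that border all 5 arm interiors had ratios between 0.21 and 0.54.

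A gain in most of the arm length was also seen window by window. Of the 116 windows of 1 Mb with at least 50 bins used, 99 (85.3%) had a counting interval above 0 for contact with pericentromeric bins of other arms, and 4 (3.45%) had one below 0. The median log2 ratio was 0.61. All 22 windows of 2L had an interval above 0, against 16 of 20 on 2R, 19 of 23 on 3L, 27 of 28 on 3R and 15 of 23 on X. The median was highest on 2L, at 0.74, and lowest on X, at 0.38. With pericentromeric bins of the own arm, 96 windows (82.8%) had an interval above 0 and 2 (1.72%) one below. Bins with few entries receive large balancing factors, and when the 10% of bins with the fewest entries in the H3K9M map were left out, 112 windows had an interval above 0 and 3 one below. The median was then 0.83 on 2L, 0.77 on 3L, 0.72 on 3R, 0.54 on 2R and 0.55 on X.

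**Figure D2:**
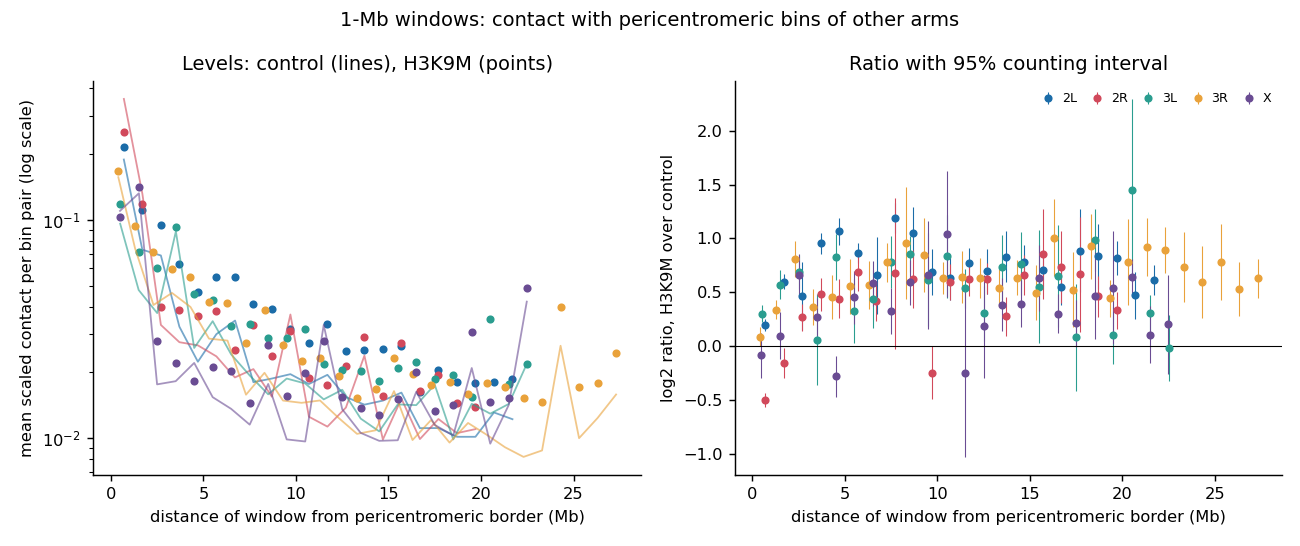
Contact of the 116 interior windows of 1 Mb with pericentromeric bins of other arms, against distance from the pericentromeric border in Mb. The left panel gives the mean scaled contact per bin pair on a log scale, with control as lines and H3K9M as points, and the right panel the log2 ratio with its 95% counting interval, each arm in its own colour. Most points beyond the first 1 Mb lie above 0, and the window at -0.50 next to the border is that of 2R.

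The window with the highest ratio among those with at least 500 contacts in each map lay on 3L from 2000001 to 3000000 and held 84 protein-coding genes. Its level was 0.0130 in control and 0.0353 in H3K9M, a log2 ratio of 1.45 (0.60 to 2.30). Of its 2620 contacts in H3K9M, 1297 (49.5%) were with the 100 kb at 3R 2000001, which gave 19 of 4042 (0.470%) in control. Without that partner the ratio was 1.17 (0.13 to 2.21), and this interval included the median of all windows, 0.61. A value without both the partner and iterative correction was not computed. This window thus drew on a single partner to an extent that no other named window did, the next highest share in H3K9M being 6.25%.

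The windows that followed lay on 2L. From 14000001 to 15000000 the level was 0.0181 in control and 0.0412 in H3K9M, a ratio of 1.19 (1.05 to 1.33). From 17000001 to 18000000 it was 0.0224 and 0.0469, a ratio of 1.07 (0.94 to 1.19). No partner gave more than 2.41% of the contacts of either, so their gain was spread over the pericentromeric regions.

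At the other end was the 2R window from 5000001 to 6000000, next to the border, with 0.357 in control, 0.253 in H3K9M and a ratio of -0.50 (-0.57 to -0.44). It holds Nipped-A, which codes for a subunit of histone acetyltransferase complexes. The window on X from 18000001 to 19000000 was at -0.28 (-0.47 to -0.09), and that on X from 11000001 to 12000000 at -0.25 (-1.03 to 0.53). The former came to -0.15 (-0.23 to -0.06) without the bins with few entries, but to -0.04 (-0.11 to 0.03) without iterative correction and to -0.11 (-0.31 to 0.09) without the single pairs described last. The latter came to 0.30 (0.20 to 0.40) without the bins with few entries. Of these 3 windows, that of 2R kept an interval below 0 under each of these settings.

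Windows next to the border were set beside those at the far ends. On 2L, 3L and 3R the window next to the border was at 0.20 (0.14 to 0.25), 0.30 (0.23 to 0.38) and 0.09 (-0.0011 to 0.17), and on X at -0.09 (-0.30 to 0.12). The most distal full windows were at 0.61 on 2L, 0.33 on 2R, 0.63 on 3R and 0.11 (-0.15 to 0.37) on X. That of 3L was at -0.02 (-0.32 to 0.29). Without the bins with few entries, the X window next to the border was at 0.28 (0.22 to 0.33), and the distal windows of 2R, 3L and X were at 0.56, 0.47 (0.33 to 0.61) and 0.46. The border window of 3R was then at 0.02 (-0.01 to 0.05). Over the 116 windows the ratio had a Pearson correlation of -0.32 with the number of DpnII sites (Spearman -0.33), the sites of the enzyme that cuts the DNA in this protocol, and of 0.21 with distance from the border (Spearman 0.19). These windows share 1 pair of maps and the same pericentromeric partners, so the coefficients are a description.

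Genes were described by the bins within 50 kb of their start, since stage 5 is when the genes that pattern the embryo are first transcribed. Of all 13796 protein-coding genes of the 5 arms, 61.7% had an interval above 0 for contact with pericentromeric bins of other arms and 2.42% one below, with a median log2 ratio of 0.57. Counts for a list are to be read against these shares, and neighbouring genes share bins. Among the 8 Hox genes, which set the identity of body segments and lie in a pair of clusters on 3R, 8 were higher, with a median of 0.68. Deformed (Dfd) lay at the median, with a level of 0.0423 in control and 0.0684 in H3K9M and a ratio of 0.69 (0.43 to 0.96). Antennapedia (Antp) was highest at 1.21 (0.14 to 2.29) and labial (lab) lowest at 0.50 (0.30 to 0.70). Thus both clusters lay among windows with a gain.

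Of the 7 gap genes, which divide the early embryo into broad regions, 5 were higher and 1 was lower. Knirps (kni) had a level of 0.0299 in control and 0.0614 in H3K9M, a ratio of 1.03 (0.73 to 1.34). Huckebein (hkb), whose start lies close to the pericentromeric border of 3R, was at -0.19 (-0.38 to -0.01), and Krüppel (Kr) at -0.20 (-0.58 to 0.19). Of the 9 pair-rule genes, which lay down the segments in alternation, 7 were higher, from odd-paired (opa) at 0.36 (0.17 to 0.54) to runt (run) at 1.00 (0.70 to 1.29). Of the 13 genes of dorsoventral patterning, 8 were higher and none was lower. The highest was intermediate neuroblasts defective (ind), with 0.0157 in control, 0.0451 in H3K9M and a ratio of 1.52 (1.08 to 1.96), whereas ventral nervous system defective (vnd) was at 0.08 (-1.11 to 1.28). The share of these patterning genes that were higher ranged from 61.5% to 100%, beside 61.7% for all genes. These counts moved with the processing. Both without iterative correction and without the bins with few entries, 13 of 13 dorsoventral and 9 of 9 pair-rule genes were higher, and the share for all genes was not computed there. Windows with an interval above 0 also rose, from 99 of 116 to 112 under either setting. These counts are therefore not read as a trait of the lists.

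The genes of the pathway itself were listed as well. Of 14 genes for HP1 family proteins, their partners and H3K9 methyltransferases, which all lie in arm interiors, 7 were higher and none was lower, with a median of 0.57, equal to that of all genes. Under each of the same pair of alternatives 13 of these 14 were higher, again without a share for all genes. The bins around the HP1 gene were at 0.95 (0.65 to 1.24), and those around the methyltransferase gene Su(var)3-9 at 0.73 (0.39 to 1.07). HP4, for an HP1 partner, was highest at 1.69 (0.0019 to 3.38) and Kdm4A, for a demethylase of H3K9, lowest at 0.15 (-0.27 to 0.57). Of the histone H3 genes, His3.3A and His3.3B were higher, at 0.74 (0.23 to 1.25) and 1.07 (0.06 to 2.07), and cid, the centromeric H3, was at 0.24 (-0.25 to 0.73).

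Bins around genes that reside in heterochromatin went the opposite way, as did the pericentromeric regions that hold most of them. Of 19 such genes, 18 of them inside the pericentromeric regions, 14 had less contact with pericentromeric bins of other arms and none had more, with a median of -0.36. Under the same alternatives 19 of 19 were lower, again without a share for all genes. Among all 114 protein-coding genes of these regions, 69.3% were lower. The count for the list is near that share and largely restates the loss between pericentromeric regions. It is therefore not read as a trait of these genes. The gene light (lt), a vacuolar protein sorting gene whose expression depends on its heterochromatic setting, had 1.03 in control and 0.678 in H3K9M, a ratio of -0.61 (-0.84 to -0.38). The lowest was unextended (uex) at -1.14 (-1.66 to -0.63), with levels of 0.708 and 0.321. The ribosomal protein gene RpL5 was at the median, -0.36 (-0.50 to -0.23), and AGO3, an Argonaute of the piRNA pathway, was highest at 0.06 (-0.24 to 0.35).

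With interiors of other arms the same list turned around. Of the 19 heterochromatic genes 16 were higher and 1 was lower, with a median of 0.37, where 62.3% of the 114 genes in the regions and 2.79% of all genes were higher. The MAP kinase gene rolled (rl) had a level of 0.0155 in control and 0.0271 in H3K9M, a ratio of 0.81 (0.60 to 1.02), and IntS3, for an Integrator subunit, was at 0.76 (0.59 to 0.94). AGO3 was the member that was lower, at -0.21 (-0.38 to -0.05), as were 7.02% of the 114. No gene of the 6 other lists had an interval above 0 for this contact, and 69.4% of all genes had one below 0.

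**Figure D3:**
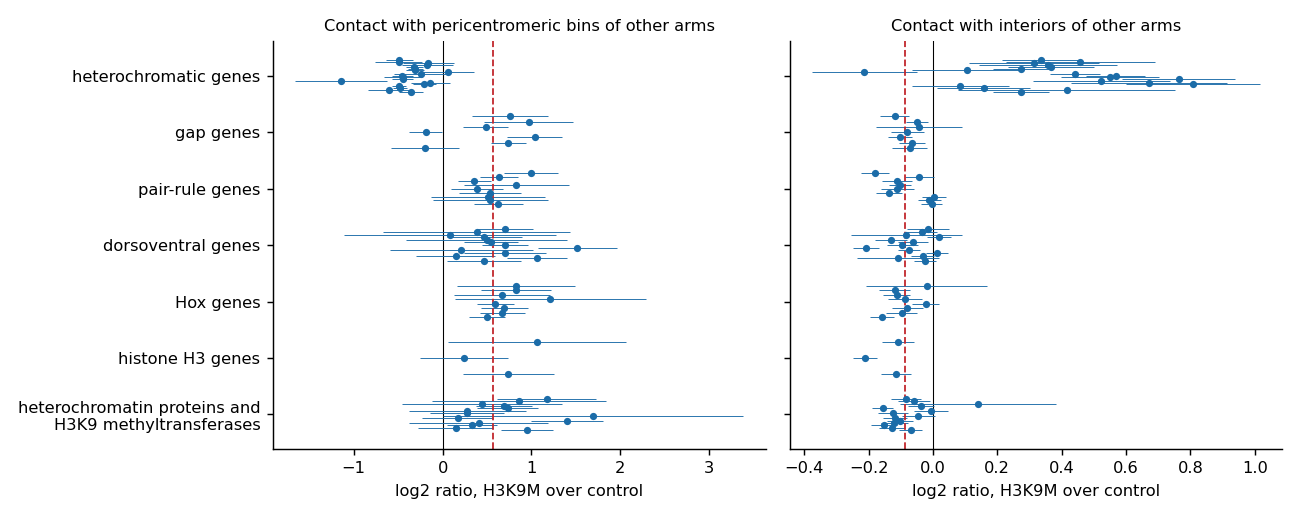
Log2 ratio of H3K9M over control for the genes of 7 lists, each by the bins within 50 kb of its start, for contact with pericentromeric bins of other arms (left) and with interiors of other arms (right). Points are genes, bars are 95% counting intervals and the dashed line is the median of all 13796 genes. The heterochromatic genes lie mostly left of 0 in the left panel and right of 0 in the right panel, and the other lists mostly the other way.

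Within the arm interiors, contact was compared by distance, because the decay of contact with distance reflects how an arm is folded. The ratio was below 0 up to 100 kb, with its lowest value of -0.11 at 0.04 Mb, and above 0 from 0.14 Mb on. Between 0.5 and 1 Mb the level was 2.08 in control and 2.90 in H3K9M, a ratio of 0.48 (0.479 to 0.487), and the arms lay between 0.44 on 2L and 0.54 on 2R. From 5 to 10 Mb the ratio was only 0.15 (0.14 to 0.16). It then was higher again, with 0.35 (0.30 to 0.40) from 10 to 15 Mb, 0.49 (0.46 to 0.53) from 15 to 20 Mb and 0.44 (0.36 to 0.51) from 20 to 30 Mb. The ratio thus had a maximum near 1 Mb, a minimum between 4.82 Mb, on 2L, and 7.23 Mb, on 3L and X, and another gain at very long range.

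Over 10 Mb the level was 0.0463 in control and 0.0604 in H3K9M, a ratio of 0.38 (0.35 to 0.42), from 331041 contacts in H3K9M. All 5 arms were higher. For chromosome 2 the ratio was 0.54 (0.34 to 0.74) on its left arm and 0.48 (0.46 to 0.51) on its right arm. For chromosome 3 it was 0.36 (0.33 to 0.39) and 0.35 (0.33 to 0.36), and X was lowest at 0.29 (0.25 to 0.33). The interval on 2L was the widest although 57001 contacts lay behind it, since 2 of its windows held bins with few entries. Without such bins the highest of the 5 arms was at 0.48, as it was without iterative correction. The 0.54 of 2L thus did not hold under either setting. The intervals of 3L and 3R overlapped, and that of 2R lay above both.

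The gain ran through the windows of all arms. Contact over 10 Mb was higher in 116 of 116 windows, in 112 of them (96.6%) with an interval above 0, and in 0 with an interval below. Named as the highest were the 2L windows from 6000001 to 7000000 at 1.28 (-0.02 to 2.58) and from 19000001 to 20000000 at 0.96 (-0.01 to 1.93), which both came to 0.39 without the bins with few entries. The 2R window from 5000001 to 6000000 next to the border was at 0.91 (0.85 to 0.98), with levels of 0.0182 and 0.0343, and at 0.92 without those bins. The lowest 3 were on X, where the windows from 11000001, 7000001 and 2000001 were at 0.06 (-0.07 to 0.18), 0.11 (0.03 to 0.20) and 0.12 (0.04 to 0.20). The window beside the 2R border was thus high for this contact under both settings, and it was the lowest of those named for contact with pericentromeric regions of other arms.

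**Figure D4:**
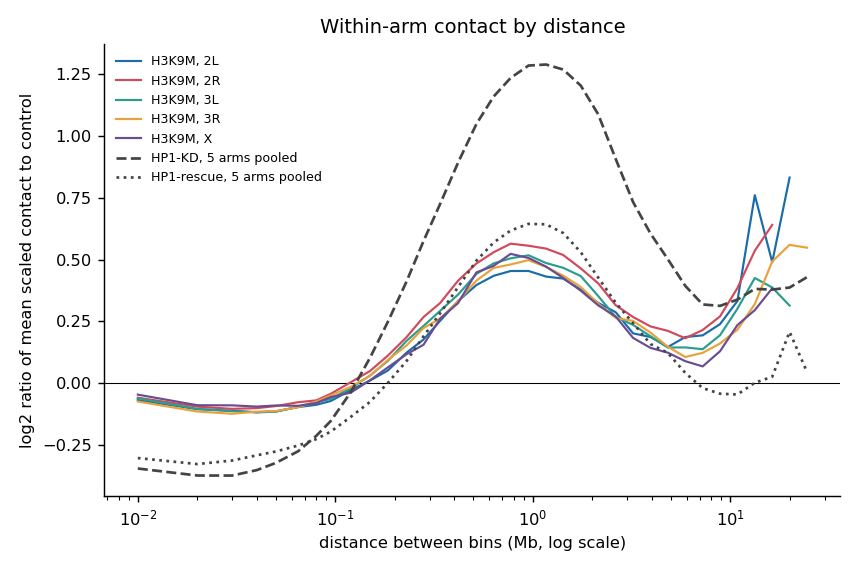
Log2 ratio to control of the mean scaled within-arm contact against distance between bins in Mb on a log scale. Solid lines give H3K9M for each of the 5 arms, in distance classes with at least 3000 contacts, and broken lines HP1-KD and HP1-rescue with the arms pooled, all against the same control map. The H3K9M lines run close together up to 5 Mb, peak near 1 Mb at 0.45 to 0.56 and turn up again beyond 10 Mb.

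Contact between the interiors of different arms was lower by a small amount. The level was 0.0711 in control and 0.0675 in H3K9M, a log2 ratio of -0.08 (-0.0796 to -0.0713). It was -0.07 between the arms of 1 chromosome and -0.08 between chromosomes. The 10 pairs of arms ran from -0.13 (-0.16 to -0.11) for 3L and X to -0.0052 (-0.02 to 0.01) for 2R and X, and the latter was the pair whose interval included 0. The value depends on the total the maps are scaled to. Scaled to contacts between chromosomes it was -0.0191.

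This small mean joined opposite changes. Where both loci lay equally far from the border, within 0.5 Mb, the level was 0.127 in control and 0.108 in H3K9M, a ratio of -0.23 (-0.26 to -0.20). With an offset of 5 to 8 Mb the ratio was -0.07 (-0.07 to -0.06), and with 8 to 12 Mb 0.03 (0.02 to 0.04). Beyond that it was above 0, reaching 0.31 (0.28 to 0.34) from 16 to 20 Mb and 0.38 (0.33 to 0.44) from 20 to 30 Mb. In squares of 2 Mb, the first 2 Mb of an arm had a ratio of -0.31 (-0.35 to -0.27) with the first 2 Mb of other arms and 0.45 (0.37 to 0.54) with the stretch from 20 to 22 Mb. Pairs of loci at like distance thus had less contact, and pairs of which 1 lay near the centromere and the other near the telomere had more.

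Arm alignment combines both. It divides the mean contact of loci on 2 arms that are offset by under 1 Mb, counted from the border, by that of loci offset by at least 5 Mb. It was 2.58 in control and 2.17 in H3K9M, a difference of -16.1%. Of the 10 pairs of arms 8 were lower. The pair of 2L and 2R had the largest difference, -31.2%, from 3.43 to 2.36, followed by 2R with 3R at -27.8% and 2R with 3L at -26.1%. The arms of chromosome 3 were at -14.4%, from 3.23 to 2.76. The pairs with X were at -10.5% with 3L, -1.73% with 2L, 3.65% with 2R and 12.7% with 3R, where the control value was 1.09. The arms of chromosome 2 thus had the largest loss of alignment with each other, and the pairs with X were the 4 with the smallest loss or a gain.

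By window, contact with interiors of other arms was lower with an interval below 0 in 99 of 116 (85.3%) and higher with one above 0 in 4 (3.45%). The highest were the 2R windows from 5000001 and 6000001, at 0.29 (0.25 to 0.34) and 0.09 (0.04 to 0.15), and the X window from 3000001 at 0.09 (0.05 to 0.13). The lowest were the windows from 9000001 on 3R at -0.21 (-0.25 to -0.17), from 19000001 on X at -0.20 (-0.24 to -0.17) and from 19000001 on 2L at -0.19 (-0.22 to -0.16). All but a few windows thus lay within a narrow range, with a median of -0.08.

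**Figure D5:**
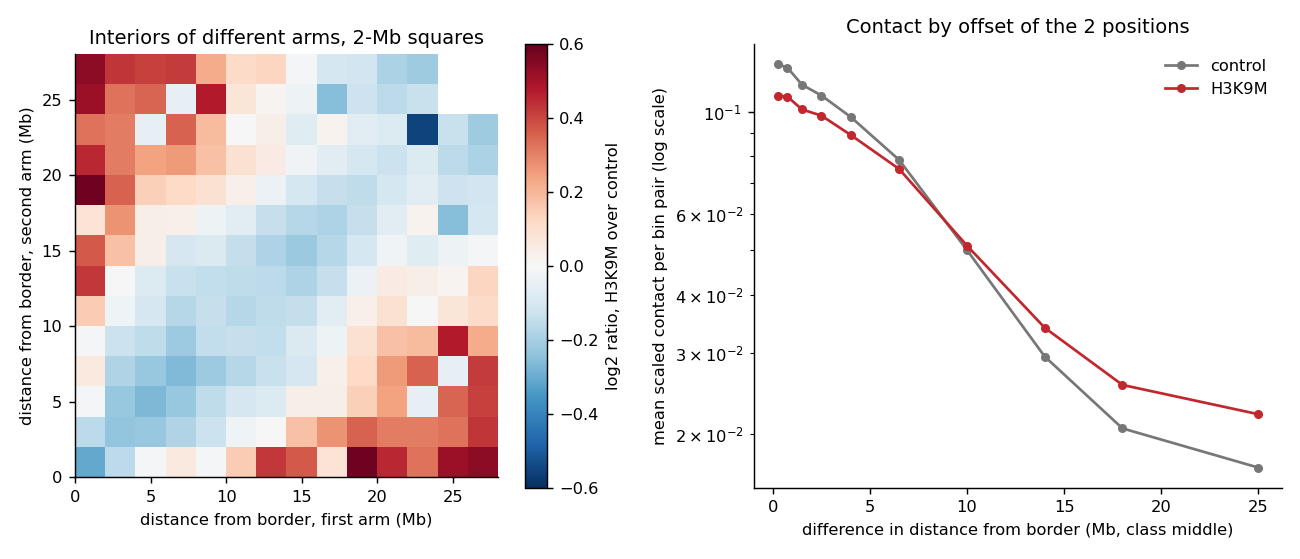
Contact between interiors of different arms. The left panel gives the log2 ratio of H3K9M over control in squares of 2 Mb by the distance of both loci from the pericentromeric border in Mb, and the right panel the mean scaled contact on a log scale in both maps against the difference between the 2 distances. Squares along the diagonal lie below 0 and those in the corners above, and the curves cross at the class from 8 to 12 Mb.

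The shares of all contacts moved little. Without pericentromeric bins, 91.4% of the signal lay within an arm in control and 91.8% in H3K9M. The share between chromosomes was 5.78% and 5.49%, a difference of -0.282 percentage points. Taken for each arm alone, where a contact between chromosomes counts for both of its arms, the difference ran from -0.368 on 2L to -0.622 on X. The share between the arms of 1 chromosome was 2.78% and 2.67%. Counted as whole contacts without iterative correction, contacts between chromosomes were 5.2103% in control (95% Wilson interval 5.2076 to 5.2129) and 4.9008% in H3K9M (4.8953 to 4.9063). The differences lay outside the counting intervals, and they were small beside the losses and gains of the single classes.

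HP1-KD and HP1-rescue embryos, from mothers with a hairpin against HP1 without and with a hairpin-resistant HP1, were set against the same control map, so all 3 comparisons share it and their values are given side by side only. Between pericentromeric regions of different arms the log2 ratio was -0.29 in H3K9M, -0.37 in HP1-KD and -0.21 in HP1-rescue. For 2L with 2R these were -0.46, -0.43 and -0.31, and for 3L with 3R -0.23, -0.41 and -0.25. Pericentromeric contact with interiors of other arms was at 0.36 in H3K9M, 0.34 in HP1-KD and 0.0022 in HP1-rescue. With the own arm it was at 0.39, 0.85 and 0.20. Contact between the interiors of different arms was at -0.08 in H3K9M, -0.17 in HP1-KD and -0.27 in HP1-rescue. Contacts inside a single bin count in the total each map is scaled to, and a larger share of them lowers all other levels. Among whole contacts, before correction, their share was 31.6% in HP1-rescue, 24.32% in control, 23.03% in H3K9M and 20.92% in HP1-KD. Their share of the corrected totals was not computed. How much of the ratios of the 3 groups comes from this was not tested, so the order of these ratios is not read as an order of loss.

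Along the arm, the values differed by distance. From 20 to 28 Mb from the border, contact with pericentromeric bins of other arms was at 0.52 in H3K9M and 0.20 in HP1-KD, and from 4 to 8 Mb at 0.64 and 0.65. Within arms, H3K9M was at 0.48, HP1-KD at 1.19 and HP1-rescue at 0.59 between 0.5 and 1 Mb. Over 10 Mb the values were 0.38, 0.36 and 0.0053. The paper notes an inversion on a left arm in HP1-KD and HP1-rescue embryos. The arm is 2L, which enters the pooled values of both groups and those of 2L with 2R. From 5 to 10 Mb, HP1-KD was at 0.53 on 2L and at 0.29 to 0.41 on the other arms. Over 10 Mb, HP1-rescue was at 0.11 on 2L and at -0.10 to 0.09 on the others. The part of the inversion in these values was not tested. The difference in alignment was -16.1% in H3K9M, -14.6% in HP1-KD and -3.54% in HP1-rescue. How far the 3 groups differ from each other was not tested, since each is a single map.

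Single pairs of 100-kb windows that stood out in only 1 map were counted last. A pair counted when it lay over 2 Mb apart or on different arms, had at least 8 times the median contact for its class in 1 map and less than 2 times in the other, and held at least 30 contacts there, a minimum set after the values were seen. In H3K9M 69 pairs did so, 56 of them between arms, 25 with a pericentromeric window and 27 with X. In control there were 342, of which 306 lay between arms, 133 involved a pericentromeric window and 133 X. The control map is deeper and reaches the minimum more easily, so these counts are not compared.

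The pair with the most contacts in H3K9M joined 3L 2100001 to 3R 2000001, inside the 3R pericentromeric region, with 447 contacts against 2 in control. It lies in the 3L window with the highest gain described above. Another joined 3L 14000001 to 3R 3100001 with 142 contacts against 7, and 1 within X joined 900001 to 19600001, 18.7 Mb apart, with 97 against 16. In control, 3L 20100001 and X 2700001 had 2517 contacts against 5, and 3L 11100001 and X 300001 had 1107 against 11. The latter lies beside the contact of y with 3L 11060001 noted for the control stock. Such pairs stood in 1 map each and are given as a property of the libraries.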

How the data were processed

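Hi-C maps of stage 5 embryos were analysed, 1 pooled map each for control (7 libraries), H3K9M (2), HP1-KD (5) and HP1-rescue (3). By its name, the HP1-KD map may leave some libraries out. The deposited files hold a signal per pair of 10-kb bins on genome build dm6, to which the authors applied iterative correction, and the submitters' processing notes name HiC-Pro 2.11.1. The read filters were not given in the sources used here. Maps of S2 cells were not used here. The name of the control map placed it in its group.

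Factors of the correction were recovered from contacts between chromosomes, and 100% of values under 20 contacts came out whole within 0.02 in all 4 maps. Bins with contacts in all 4 maps were used. Pericentromeric borders were set where the running 500-kb mean of repeat-masked bases of the reference fell below 30%. Counting intervals (95%) of log2 ratios were computed from whole contacts and balancing factors and cover counting error only. An item was counted as higher or lower where this interval lay beyond 0. No test was made, since each group is 1 map, and arms are not replicates.

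Named windows were the 3 highest and 3 lowest per measure among those with at least 500 contacts in each map and, for pericentromeric contact, those next to the border and the most distal. For each list of genes the highest, the lowest and the one nearest the median were named, and further genes were chosen after their values were seen. The members, lists and rules were chosen with earlier results of these data known. The check of partner windows was added after the values were seen. The measures were tested on simulated data. Arrays were handled with numpy 2.4.6 and tables with pandas 2.3.3 in Python 3.11.15, with scipy 1.17.1 for intervals and matplotlib 3.10.9 for plots.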

Additional observations from a re-analysis of the deposited data

Results flagged for a closer look

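Chromosome 4, which the comparisons above leave out, has 135 bins, and all were counted, without the filter for contacts in all 4 maps. Its level with interiors of the 5 arms was 0.0448 in control and 0.0468 in H3K9M, a log2 ratio of 0.0655 (0.03 to 0.11), so that a difference was seen in data outside the main measurement. With pericentromeric bins of the 5 arms it was 0.296 and 0.292, a ratio of -0.02 (-0.07 to 0.03).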

How the results depend on the processing

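No paired analysis was possible because each group is 1 pooled map and no result comes from a test. Without replicates, a value was taken as moved where it changed by at least 1 SD over arms or pairs of arms, and a count where it changed by more than 1.5 times. Of 112 values of the 8 main results under alternatives, 101 kept within these limits, 11 moved and none changed sign. With contacts under 20 kb left out of the total, the difference in the share between chromosomes was -0.751 percentage points and the ratio between arms -0.12. The latter was -0.0191 when scaled to contacts between chromosomes. A border at a repeat share of 50% counted most of the bins called pericentromeric above as interior. It brought contact of pericentromeric regions with interiors of other arms to 0.0198 and the windows gaining it to 47 of 131. These windows were 183 of 233 at 500 kb and 50 of 59 at 2 Mb. Within-arm contact over 5 Mb was at 0.20. Windows gaining within-arm contact were 73 of 86 over 15 Mb, and over 10 Mb 219 of 233 at 500 kb and 59 of 59 at 2 Mb. Leaving out 1 arm at a time gave -0.36 to -0.24 between pericentromeric regions, 0.29 to 0.40 with interiors of other arms, 0.35 to 0.41 over 10 Mb and -23.1% to -11.3% for alignment. Of 81 values of named windows under 3 alternatives, 61 kept their direction and side of 0, 9 gained an interval beyond 0, 3 lost it and 8 changed sign. For pericentromeric contact, the X window from 11000001 came to 0.0524 without iterative correction, 0.30 without the bins with few entries and 0.18 without the single pairs. The most distal 3L window came to 0.68 and 0.47 under the first and second of these, and the X window next to the border to 0.23 and 0.28. The last value rests on 46 of its 95 bins. Contact over 10 Mb of the X window from 11000001 was -0.14 without iterative correction. Leaving out the single pairs was chosen after seeing the data. The cause of these shifts was not tested. The X pericentromere and single pairs of windows rest on few contacts.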
